A study of Xenopus laevis with 12 samples.

Results

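The genes described here are the frog's vesicle transport and endosome genes whose symbols begin with arf, arl, rab, chmp, vps or sec followed by a digit. Each was read at 1 probe set that carries a single gene symbol, the brightest on average where a gene had several, which gave 161 genes of the 11303 named on the array. They divide into 37 secretory genes (arf and sec), 16 Arl genes, 69 Rab genes and 39 ESCRT and Vps genes (chmp and vps). The division goes by symbol alone, so the Arl and Rab groups also hold genes named for partners of these proteins. Of the 161 genes, 37 were dim, with a mean level no higher than the median probe set, and all 161 were kept. Xenopus laevis descends from a hybrid of a pair of species and often keeps both parental copies of a gene, which are called homeologs and end in .L and .S; here 39 pairs had both copies measured.

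Proteins bound for the cell surface or for secretion enter the endoplasmic reticulum (ER) through the Sec61 channel, leave it in vesicles with a COPII coat, and pass the Golgi under the control of Arf and Rab GTPases, small switches that recruit coats, tethers and motors. Material taken up from the surface reaches early endosomes, from which Rab11 and its relatives return it to the surface, retromer carries it back to the Golgi, and the ESCRT complexes sort it into the inner vesicles of late endosomes. In the tadpole's epidermis this traffic serves cells that secrete mucus, cells that carry many cilia and ionocytes, which move ions across the skin.

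The study measured total RNA on an Affymetrix 3' array in animal caps, the ectoderm at the top of the blastula, which becomes epidermis when cultured alone. Embryos had mRNA injected into the animal pole at the 2-cell stage, and caps were cut out at stage 9 and cultured to stage 15. The 4 groups, with 3 arrays each, received wnt3a, chordin and kctd15 mRNA (wnt3a+chordin+kctd15), wnt3a and chordin mRNA (wnt3a+chordin), kctd15 mRNA (kctd15), or lacZ mRNA, which encodes bacterial beta-galactosidase and served as the control (lacZ). The title names the search for genes that respond to Kctd15, a BTB domain protein, in caps given the Wnt ligand Wnt3a and the BMP antagonist Chordin. The labels give neither the mRNA doses nor the number of caps per sample, nor do they say whether replicates stem from separate clutches, so the p values reflect the spread between these samples, which may be technical. Levels are log2 expression, 1 unit being a doubling, and differences are log2 fold changes with the standard error (SE) of the fit. A gene was called where limma gave an adjusted p (Benjamini-Hochberg over all 32475 probe sets tested) under 0.05.

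The group labels were checked on the injected genes. wnt3a.S lay at 12.02 to 12.97 in the 6 arrays with its mRNA and at 3.87 to 6.43 in the others, while the chordin gene chrd.1.S was also high in kctd15 replicate 3 (9.08) and lacZ replicate 3 (9.37). The probe set for kctd15.L split the arrays by label, but in the direction opposite to the label. It stood at 3.52 to 6.77 in the 6 arrays labelled kctd15 and at 10.22 to 11.22 in the 6 others. Where this probe set lies relative to the injected mRNA is not known. Which side of each kctd15 comparison received the mRNA, and so the direction of each difference, therefore rests on the label alone. Markers of the other cell types a cap can hold moved with wnt3a and chordin. In wnt3a+chordin against lacZ, 13 of 14 multiciliated cell markers, 9 of 10 ionocyte markers and 9 of 12 epidermis markers fell. So did 3 of 5 small secretory cell markers and 3 of 7 cement gland markers. There, 1 epidermis marker rose, as did 11 of 11 neural plate markers and 13 of 16 neural crest markers. In wnt3a+chordin+kctd15 against kctd15, 12 of 14 multiciliated, 8 of 10 ionocyte, 7 of 12 epidermis, 1 of 5 small secretory cell and 3 of 7 cement gland markers fell. In that pair 11 of 11 neural plate and 11 of 16 neural crest markers rose. The mean level of the multiciliated markers was 6.33 to 7.81 in the arrays with both inducers and 9.70 to 10.49 in those without, and that of the neural plate markers was 11.45 to 12.03 and 7.33 to 9.25. Ionocyte markers had a mean of 7.58 in wnt3a+chordin+kctd15 replicate 2, against 4.68 and 4.91 in its partners. In bulk tissue, fewer cells of a type and less RNA per cell cannot be told apart, and the part of cell makeup in the results below was not tested. Muscle markers were highest in wnt3a+chordin+kctd15 replicate 2 (mean 7.79, against 4.82 and 5.91 in its partners) and lacZ replicate 3 (7.26, against 4.71 and 4.53). They were also high in wnt3a+chordin replicates 2 and 3 (6.87 and 6.80, against 4.71 in replicate 1), and stood at 4.79 to 5.73 in kctd15. The main counts were therefore also taken without the first 2 of these arrays and without all 4.

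With wnt3a and chordin, genes of this machinery were lower more often than higher. In wnt3a+chordin against lacZ, 67 of 161 fell (41.6%, where 19.0% of all named genes fell) and 21 rose (13.0%, where 25.5% of all named genes rose). The median log2 fold change was -0.28, against 0.10 over all named genes. In wnt3a+chordin+kctd15 against kctd15, which uses the other 6 arrays, 68 fell (42.2%, with 20.5% of all named genes) and 17 rose (10.6%, with 24.9%), and the median was -0.29, against 0.03 over all named genes. Between arrays of the same replicate number the median of the 161 genes was -0.26, -0.37 and -0.23 in the first comparison and -0.36, -0.27 and -0.27 in the second. The shares of all named genes come from the main fit and were not taken under the settings that follow. With the replicate number as a block, 81 genes fell in each comparison, and 32 rose in the first and 27 in the second. Without the 2 arrays with the highest muscle levels the counts were 59 lower and 17 higher in the first comparison and 63 and 16 in the second. Without all 4 arrays rich in muscle markers, which leaves 1 wnt3a+chordin array that is assumed to vary like the others, they were 40 and 8, and 59 and 11.

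The subgroups shared this direction to different degrees. Over all named genes 19.0% fell and 25.5% rose in the first comparison, and 20.5% and 24.9% in the second. These shares of all named genes also apply to the counts of the lists below. Among secretory genes 20 of 37 fell in wnt3a+chordin against lacZ (54.1%, median -0.40) and 21 of 37 in wnt3a+chordin+kctd15 against kctd15 (56.8%, median -0.56). Among Arl genes 8 and 5 of 16 fell (50.0% and 31.2%, medians -0.40 and -0.20). Between arrays of the same replicate number the Arl median of the second comparison was -0.35, 0.05 and -0.25. With 1 array left out at a time it ran from -0.31 to -0.05. Of the 69 Rab genes, 25 fell (36.2%) and 13 rose (18.8%) in the first comparison (median -0.09). In the second 26 fell (37.7%) and 7 rose (10.1%), with a median of -0.16. Of the 39 ESCRT and Vps genes, 14 fell (35.9%) and 4 rose (10.3%) in the first comparison (median -0.22). In the second 16 fell (41.0%) and 4 rose (10.3%), with a median of -0.21. In every subgroup the share that rose was below that of all named genes in both comparisons. No test was run of the difference between subgroups. Without the 2 muscle-rich arrays the secretory median of the first comparison was -0.57 in place of -0.40.

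**Figure D1:**
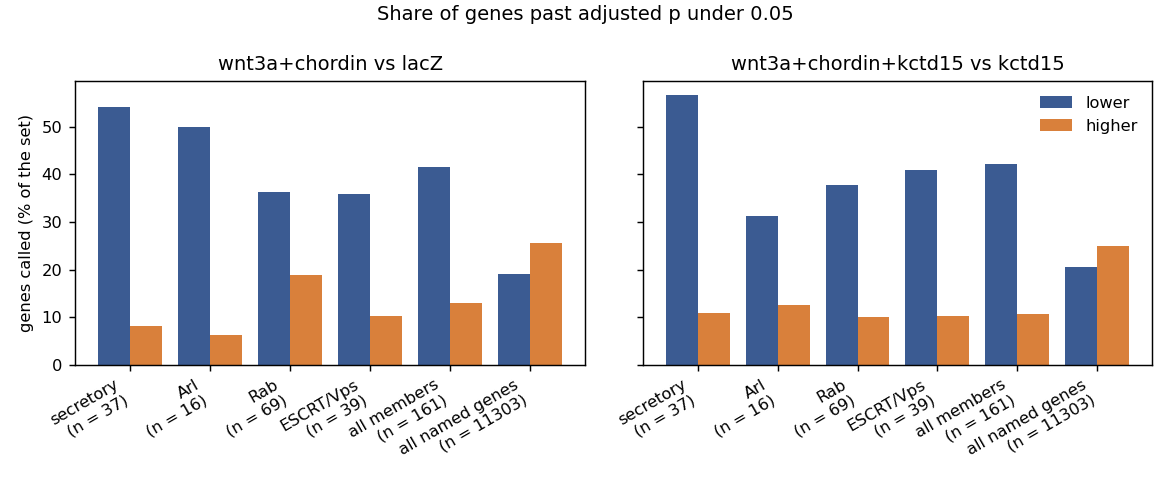
Bars give the percentage of genes called lower (blue) or higher (orange) in each subgroup, in all 161 genes and in all named genes, for wnt3a+chordin against lacZ (left) and wnt3a+chordin+kctd15 against kctd15 (right). In each subgroup the blue bar is taller than the orange one, while over all 11303 named genes the orange bar is the taller.

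At the gateway of the pathway, genes of the ER translocon and signal peptidase moved in both directions. The list holds 11 measured genes, of which 5 fell (45.5%) and 3 rose (27.3%, with 25.5% of all named genes) in wnt3a+chordin against lacZ. In wnt3a+chordin+kctd15 against kctd15, 5 fell (45.5%) and 2 rose (18.2%, with 24.9% of all named genes). sec61a1.S, the channel subunit through which proteins cross the ER membrane, stood at 13.61, 13.47 and 13.86 in wnt3a+chordin+kctd15, at 13.84, 13.57 and 13.93 in wnt3a+chordin, at 14.36, 14.24 and 14.35 in kctd15 and at 14.38, 14.32 and 14.33 in lacZ. All 6 arrays with the inducers lay below all 6 without, and the gene fell by 0.56 (SE 0.13, adjusted p = 0.00468) and by 0.67 (adjusted p = 0.00166). The catalytic subunits of signal peptidase, which cuts the leader from proteins entering the ER, differed from each other. sec11a.S had 9.26, 9.38 and 9.28 in wnt3a+chordin+kctd15, 9.43, 9.53 and 9.40 in wnt3a+chordin, 8.74, 8.78 and 8.80 in kctd15, and 8.49, 8.57 and 8.51 in lacZ. It rose by 0.93 in the first comparison (SE 0.09, adjusted p = 1.86e-05) and by 0.53 in the second (adjusted p = 0.000642), with no overlap between the groups. Its relative sec11c.S fell by 0.71 (adjusted p = 0.00211) and by 1.09 (adjusted p = 0.000143), but its dimmer probe set gave 1.99 in the second comparison (adjusted p = 0.13). sec62.S, a partner of the channel in import after translation, rose by 0.61 in the first comparison (adjusted p = 0.00388) and had 0.15 in the second (adjusted p = 0.428).

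Of the 10 genes measured on the COPII list, 6 fell in wnt3a+chordin against lacZ and 7 in wnt3a+chordin+kctd15 against kctd15. None rose in either at the probe set read, and the medians were -0.66 and -0.98. The list also holds the homeologs of sec16a and sec23ip, which are not coat subunits. Of these, sec16a.L and sec23ip.S fell in the first comparison, and both homeologs of each fell in the second. sec13.S, which pairs with Sec31 in the outer cage of the coat, fell by 0.47 in the first comparison (adjusted p = 0.00794). It had -0.28 in the second (adjusted p = 0.0723, or 0.0107 with the replicate block). Its 4 dimmer probe sets differed in direction. The brightest of them fell by 0.75 (adjusted p = 0.00116) and 0.63 (adjusted p = 0.00349). However, 1 rose by 0.55 (adjusted p = 0.0344) and 0.89 (adjusted p = 0.00292), and the others were not called. sec24a.S, an adaptor that picks cargo for the coat, stood at 9.40, 9.62 and 9.73 in wnt3a+chordin+kctd15 and at 9.60, 9.53 and 9.78 in wnt3a+chordin, against 10.75, 10.75 and 10.89 in kctd15 and 10.91, 10.93 and 10.86 in lacZ. It fell by 1.26 (SE 0.11, adjusted p = 1.36e-05) and 1.21 (adjusted p = 2.02e-05), with no overlap between the groups, but its dimmer probe set showed -0.02 and 0.00. The related adaptor sec24c.S fell by 1.17 (SE 0.18, adjusted p = 0.000369) and 1.14 (adjusted p = 0.000431). Another adaptor, sec24d.L, had differences of similar size, -1.29 and -1.46, that missed the threshold with an SE of 0.60 (adjusted p = 0.111 and 0.0745) and passed with the replicate block (adjusted p = 0.000733 and 0.000374). Its dimmer probe set fell by 1.45 (adjusted p = 0.0167) and 1.26 (adjusted p = 0.0316). Replicate 2 was its lowest array in every group, at 5.18 in wnt3a+chordin+kctd15, 5.20 in wnt3a+chordin, 6.74 in kctd15 and 6.96 in lacZ. sec31b.L, from the outer cage of the coat, fell by 1.16 (adjusted p = 0.000487) and 1.19 (adjusted p = 0.000425), while its homeolog sec31b.S had -0.16 and 0.19 and overlapped between the groups in both comparisons.

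The SNARE sec22b, which fuses vesicles travelling between ER and Golgi, fell in both homeologs. sec22b.L stood at 9.46, 9.39 and 10.05 in wnt3a+chordin+kctd15 and 10.08, 9.34 and 10.32 in wnt3a+chordin, against 11.07, 11.10 and 11.40 in kctd15 and 11.41, 11.26 and 11.28 in lacZ, and fell by 1.56 in wnt3a+chordin+kctd15 against kctd15 (adjusted p = 0.000536) and fell by 1.40 in wnt3a+chordin against lacZ (SE 0.25, adjusted p = 0.00104). sec22b.S fell by 0.85 and 0.63 in these comparisons. The largest fall among the secretory genes was that of sec14l3.L, which belongs to a family of lipid-binding proteins rather than to a coat. It stood at 5.64 to 6.12 in wnt3a+chordin+kctd15 and 5.49 to 5.88 in wnt3a+chordin, against 7.91 to 8.98 in kctd15 and 8.24 to 8.39 in lacZ, and fell by 2.68 (SE 0.24, adjusted p = 1.56e-05) in wnt3a+chordin against lacZ and by 2.56 in wnt3a+chordin+kctd15 against kctd15.

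Of the 8 Arf genes measured, 6 fell in both comparisons, and the medians were -0.79 and -0.82. arf1.L, the GTPase that brings the COPI coat to the Golgi, stood at 12.49, 12.48 and 12.55 in wnt3a+chordin+kctd15 and 12.39, 12.43 and 12.49 in wnt3a+chordin, against 13.42, 13.40 and 13.27 in kctd15 and 13.44, 13.48 and 13.19 in lacZ. The inducer groups lay wholly below the others, and the gene fell by 0.93 (SE 0.10, adjusted p = 4.95e-05) and 0.86 (adjusted p = 8.74e-05). For arf6, which acts at the plasma membrane and in recycling, the annotation lists genes under separate symbols. arf6.2.S fell by 1.21 (adjusted p = 9.05e-05) and 0.83, and arf6.2.L by 0.74 and 0.90, while arf6.S had 0.27 (adjusted p = 0.0828; 0.0343 with the replicate block) and 0.20 (adjusted p = 0.185). arf3.S rose in wnt3a+chordin+kctd15 against kctd15 (0.72, adjusted p = 0.0407), with 0.33 in wnt3a+chordin against lacZ (adjusted p = 0.333), and lost its call under 7 of the alternative settings.

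**Figure D2:**
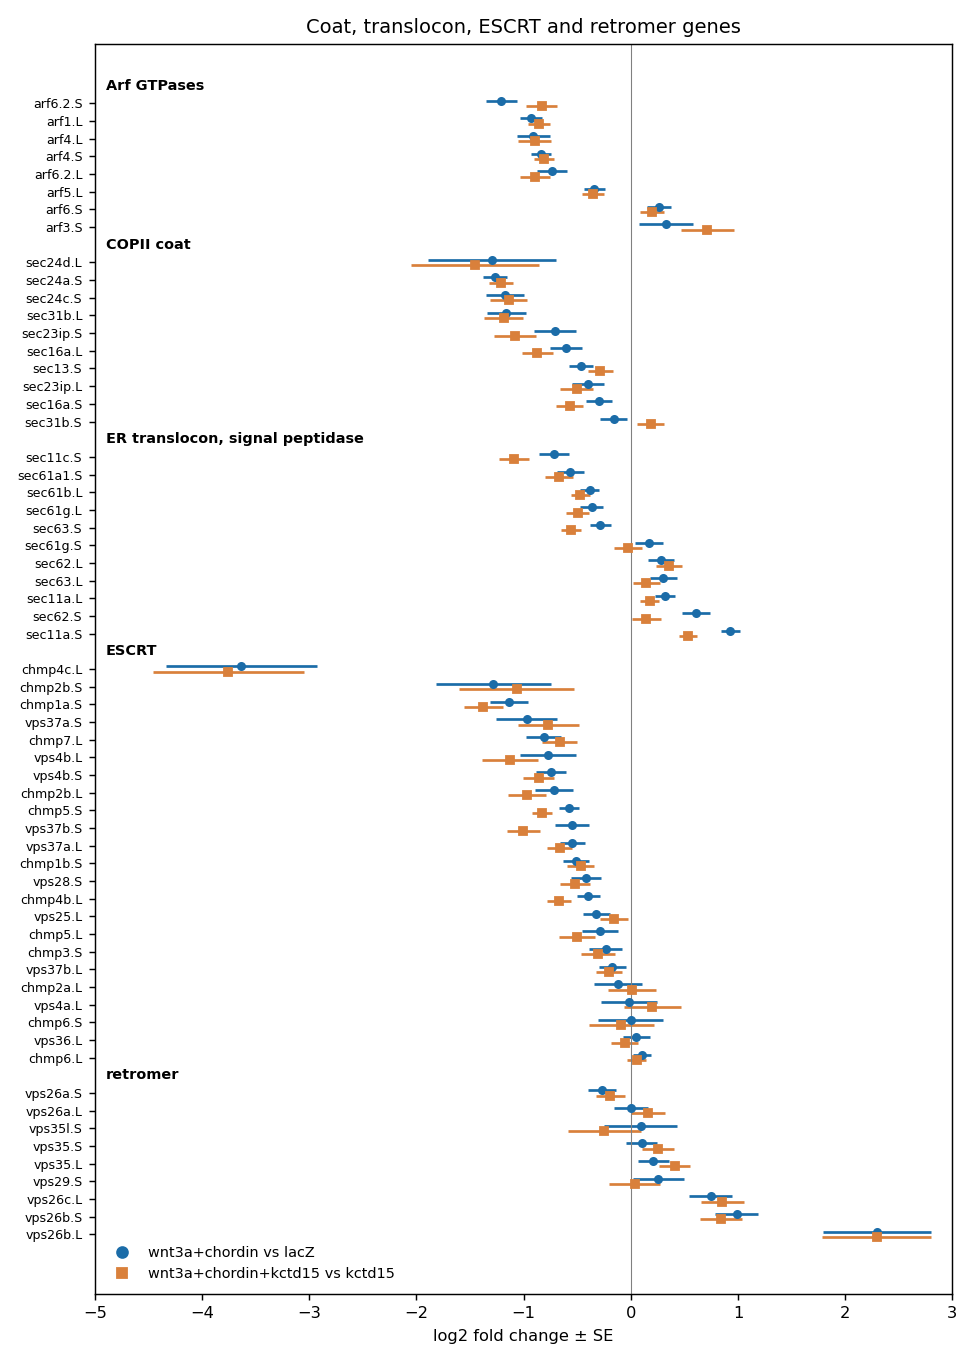
Points give log2 fold changes with SE for each measured gene of 5 lists, circles for wnt3a+chordin against lacZ and squares for wnt3a+chordin+kctd15 against kctd15 (3 arrays per group). Most Arf, COPII and ESCRT genes lie left of 0, translocon and signal peptidase genes lie on both sides, and vps26b.L, vps26b.S and vps26c.L of the retromer list lie to the right.

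The Arl genes, grouped by symbol, hold relatives of Arf with roles at the Golgi and in cilia. They also hold genes named for partners of Arl proteins, such as arl2bp, arl6ip1 and arl14ep. The gene arl1, whose product recruits tethering golgins to the trans-Golgi, fell in both homeologs. arl1.L stood at 11.61, 11.62 and 11.84 in wnt3a+chordin+kctd15 and 11.59, 11.26 and 11.72 in wnt3a+chordin, against 13.19, 13.13 and 13.08 in kctd15 and 13.04, 13.03 and 12.77 in lacZ. It fell by 1.43 (SE 0.14, adjusted p = 2.07e-05) and 1.44, and arl1.S by 1.35 and 1.89, with no overlap between groups in either homeolog. arl15.L fell by 1.35 and 1.19, and arl6ip1.S, which encodes a protein that shapes ER membrane, by 1.19 and 1.53. arl14ep.L rose by 0.64 and 0.63, but its dimmer probe set had -0.20 in wnt3a+chordin against lacZ (adjusted p = 0.504).

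Arl genes linked to cilia were among those that fell in wnt3a+chordin against lacZ. arl3.S, a GTPase that releases lipid-bearing cargo inside cilia, stood at 7.95, 9.17 and 9.22 in wnt3a+chordin+kctd15, 8.30, 8.84 and 9.23 in wnt3a+chordin, 9.59, 9.29 and 10.26 in kctd15, and 10.85, 10.59 and 10.83 in lacZ. It fell by 1.96 in wnt3a+chordin against lacZ (SE 0.37, adjusted p = 0.00152) and had -0.93 in wnt3a+chordin+kctd15 against kctd15 (adjusted p = 0.0644; 0.0213 with the replicate block). arl2bp.L, whose product binds the GTPases of arl2 and arl3, stood at 10.39, 11.24 and 10.52 in wnt3a+chordin+kctd15, 10.89, 11.14 and 11.20 in wnt3a+chordin, 11.17, 11.19 and 12.31 in kctd15, and 13.45, 13.31 and 13.32 in lacZ. Its 3 lacZ arrays lay above the 9 others, and it fell by 2.28 (adjusted p = 0.000169) and by 0.84 (adjusted p = 0.046). The interaction, which tests the difference between these effects, was 1.44 for arl2bp.L (adjusted p = 0.171) and 1.03 for arl3.S (adjusted p = 0.512). Neither was called. Of the 4 measured Arl and Rab genes listed for cilia, 3 fell in the first comparison and 1 in the second. No listed gene fell in both. Those of the first were arl3.S, arl6 (-0.56, adjusted p = 0.046) and rab23.S (-0.998, adjusted p = 0.000102). In the second, arl6 had 0.34 (adjusted p = 0.214) and rab23.S had -0.04 (adjusted p = 0.843). The gene of the second was rab8a.S, with -0.63 there (adjusted p = 0.00618) and -0.28 in the first (adjusted p = 0.167).

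Rab genes held the largest fall of the 161 genes in both comparisons. rab36.L stood at 5.02, 6.56 and 5.30 in wnt3a+chordin+kctd15 and 5.69, 5.10 and 5.7 in wnt3a+chordin, against 9.32, 9.04 and 10.04 in kctd15 and 10.35, 10.05 and 10.34 in lacZ. It fell by 4.75 (SE 0.38, adjusted p = 7.42e-06) and fell by 3.84 (adjusted p = 2.86e-05), and all 6 arrays with the inducers lay below all 6 without. Among 25 secretory Rabs, which act from the ER to the plasma membrane, 12 fell (48.0%) and 7 rose (28.0%) in wnt3a+chordin against lacZ. Of all named genes 19.0% fell and 25.5% rose there. In wnt3a+chordin+kctd15 against kctd15, 13 fell (52.0%, with 20.5% of all named genes) and 3 rose (12.0%, with 24.9%).

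Rabs of regulated secretion were among those that fell. rab27a.S, whose product docks secretory granules at the plasma membrane, stood at 8.86, 8.35 and 9.04 in wnt3a+chordin+kctd15 and 8.43, 6.69 and 8.18 in wnt3a+chordin, against 11.62, 11.67 and 11.53 in kctd15 and 11.75, 11.87 and 11.60 in lacZ. It fell by 3.98 (SE 0.37, adjusted p = 1.83e-05) and 2.86 (adjusted p = 0.000152), and rab27a.L fell by 3.00 and 2.73. The related rab27b.S fell by 2.16 (adjusted p = 7.91e-05) and 0.94 (adjusted p = 0.0123), and rab27b.L fell by 2.24 (adjusted p = 0.00107) with -0.81 in the second comparison (adjusted p = 0.13). rab3d, known from secretory granules of mammalian exocrine cells, fell in both homeologs: rab3d.L fell by 2.08 and fell by 2.19, and rab3d.S by 1.92 and 2.09. rab37.L fell by 1.30 (adjusted p = 0.013) and 2.86 (adjusted p = 0.000112). Another Rab from the broader list of secretory Rabs, rab19.L, fell by 3.86 and 3.41. In wnt3a+chordin, replicate 2 held the lowest value of rab27a.S, rab27a.L (5.71, against 8.55 and 8.12 in its partners), rab3d.L (8.19, against 10.33 and 10.24) and rab19.L (4.71, against 7.90 and 7.76). The mean level of epidermis markers was also lowest there, at 8.39 against 9.95 and 9.90, and its part in these values was not tested.

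rab1a.L and rab8a.S, both on the list of secretory Rabs, changed by less than 1 log2 unit in both comparisons. rab1a.L, which tethers vesicles between ER and Golgi, stood at 11.81, 11.79 and 11.91 in wnt3a+chordin+kctd15 and 12.04, 11.87 and 12.01 in wnt3a+chordin, against 12.73, 12.65 and 12.58 in kctd15 and 12.77, 12.85 and 12.69 in lacZ, and fell by 0.80 (SE 0.10, adjusted p = 9.22e-05) and 0.82. rab8a.S, which acts in delivery to the plasma membrane and cilium, had -0.28 in the first comparison (adjusted p = 0.167) and fell by 0.63 in the second (adjusted p = 0.00618).

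Several Rabs rose. rab30.S, a Golgi Rab, stood at 5.26, 5.79 and 6.08 in wnt3a+chordin+kctd15 and 5.30, 6.58 and 5.92 in wnt3a+chordin, against 4.50, 4.04 and 4.51 in kctd15 and 4.49, 4.56 and 4.30 in lacZ, and rose by 1.49 (SE 0.30, adjusted p = 0.00255) and 1.36 (adjusted p = 0.00429). rab33a.L rose by 1.19 (adjusted p = 0.022) and 1.43 (adjusted p = 0.00867), the first of which was lost under 4 alternative settings. rab3a.L, the Rab of synaptic vesicles, stood at 7.40, 7.11 and 6.96 in wnt3a+chordin+kctd15, 7.41, 7.17 and 7.43 in wnt3a+chordin, 6.55, 6.67 and 6.98 in kctd15, and 5.44, 5.73 and 7.02 in lacZ. It rose by 1.27 in wnt3a+chordin against lacZ (SE 0.34, adjusted p = 0.0108), with 0.42 in the other pair (adjusted p = 0.36), and its lacZ replicate 3, the array rich in muscle and neural plate markers, was the nearest of the lacZ arrays to the wnt3a+chordin group. rab3b.L rose by 0.93 (adjusted p = 0.00329) with 0.44 in the other pair (adjusted p = 0.102; 0.0225 with the replicate block), and rab13.L, which acts in traffic to tight junctions, by 0.73 and 1.23.

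Among 16 Rabs of early and recycling endosomes, 5 fell (31.2%, with 19.0% of all named genes) and none rose in wnt3a+chordin against lacZ. In wnt3a+chordin+kctd15 against kctd15, 6 fell (37.5%, with 20.5% of all named genes) and 1 rose (6.25%, with 24.9%). The list goes by exact symbol and leaves out rab5d and rab35l. Of these, rab35l.L rose by 0.41 (adjusted p = 0.00842) and 0.39 (adjusted p = 0.0112). rab35l.S, rab5d.L and rab5d.S were not called, though rab5d.L in the first comparison and rab5d.S in the second passed with the replicate block. rab25.L, a Rab11 relative of epithelial cells that recycles cargo to the apical surface, stood at 8.42, 7.77 and 8.49 in wnt3a+chordin+kctd15 and 8.17, 6.05 and 7.75 in wnt3a+chordin, against 11.74, 11.15 and 11.64 in kctd15 and 10.93, 10.83 and 11.11 in lacZ. It fell by 3.64 (SE 0.45, adjusted p = 0.000109) and fell by 3.29 (adjusted p = 0.000211), and rab25.S by 1.93 and 2.10, with no overlap between groups. The general recycling Rab rab11a.S fell by 1.03 (SE 0.14, adjusted p = 0.000204) and 0.82 (adjusted p = 0.000855). rab5a.L, which drives fusion of early endosomes, stood at 11.60, 11.42 and 11.29 in wnt3a+chordin+kctd15, 11.47, 11.39 and 11.40 in wnt3a+chordin, 11.67, 11.45 and 11.47 in kctd15, and 11.53, 11.36 and 11.43 in lacZ. All 4 groups overlapped, and the differences were -0.02 (adjusted p = 0.915) and -0.09 (adjusted p = 0.576), each with an SE of 0.11.

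Of 11 Rabs of late endosomes and lysosomes, 1 fell and 1 rose in wnt3a+chordin against lacZ. These shares, 9.09% each, were below the 19.0% and 25.5% of all named genes. In wnt3a+chordin+kctd15 against kctd15, 2 fell (18.2%, with 20.5% of all named genes) and none rose. rab7a, which brings late endosomes to the lysosome, overlapped between groups in both homeologs, with -0.02 and 0.15 for rab7a.L and 0.05 and -0.07 for rab7a.S (adjusted p = 0.506 to 0.944). rab7b.L stood at 5.21, 4.49 and 4.49 in wnt3a+chordin+kctd15 and 4.97, 4.79 and 4.59 in wnt3a+chordin, against 8.54, 8.17 and 7.78 in kctd15 and 7.37, 7.42 and 6.70 in lacZ. It fell by 2.37 (SE 0.27, adjusted p = 6.05e-05) and 3.43 (adjusted p = 7.21e-06). The others called were rab24.L, which rose by 0.55 in the first comparison (adjusted p = 0.0296), and rab32.S, which fell by 0.86 in the second (adjusted p = 0.000868). Its homeolog rab7b.S stayed between 3.49 and 3.95 on all 12 arrays, near the lower end of the array's range.

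Effectors of Rab11, which link it to motors and tethers, differed in direction. rab11fip4l.L stood at 12.95, 12.71 and 12.76 in wnt3a+chordin+kctd15 and 12.52, 12.86 and 12.57 in wnt3a+chordin, against 11.04, 10.83 and 11.26 in kctd15 and 10.78, 11.12 and 11.09 in lacZ, and rose by 1.65 (SE 0.15, adjusted p = 1.64e-05) and 1.77 (adjusted p = 1.29e-05). rab11fip5.L stood at 9.93, 9.78 and 9.76 in wnt3a+chordin+kctd15 and 9.64, 10.02 and 9.02 in wnt3a+chordin, against 7.14, 8.16 and 6.98 in kctd15 and 7.47, 8.16 and 7.25 in lacZ, and rose by 1.93 (SE 0.35, adjusted p = 0.0012) and 2.40 (adjusted p = 0.000304). Both were higher in all 6 arrays with the inducers. rab11fip2.L fell by 1.5 (adjusted p = 0.00128) and 1.37 (adjusted p = 0.0022), and rab11fip1.S had 0.03 and -0.04 with overlapping groups. The list of Rab effectors and regulators, which holds these genes other than rab11fip4l.L, had 4 of 6 genes lower and 1 higher in the first comparison and 3 and 1 in the second.

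**Figure D3:**
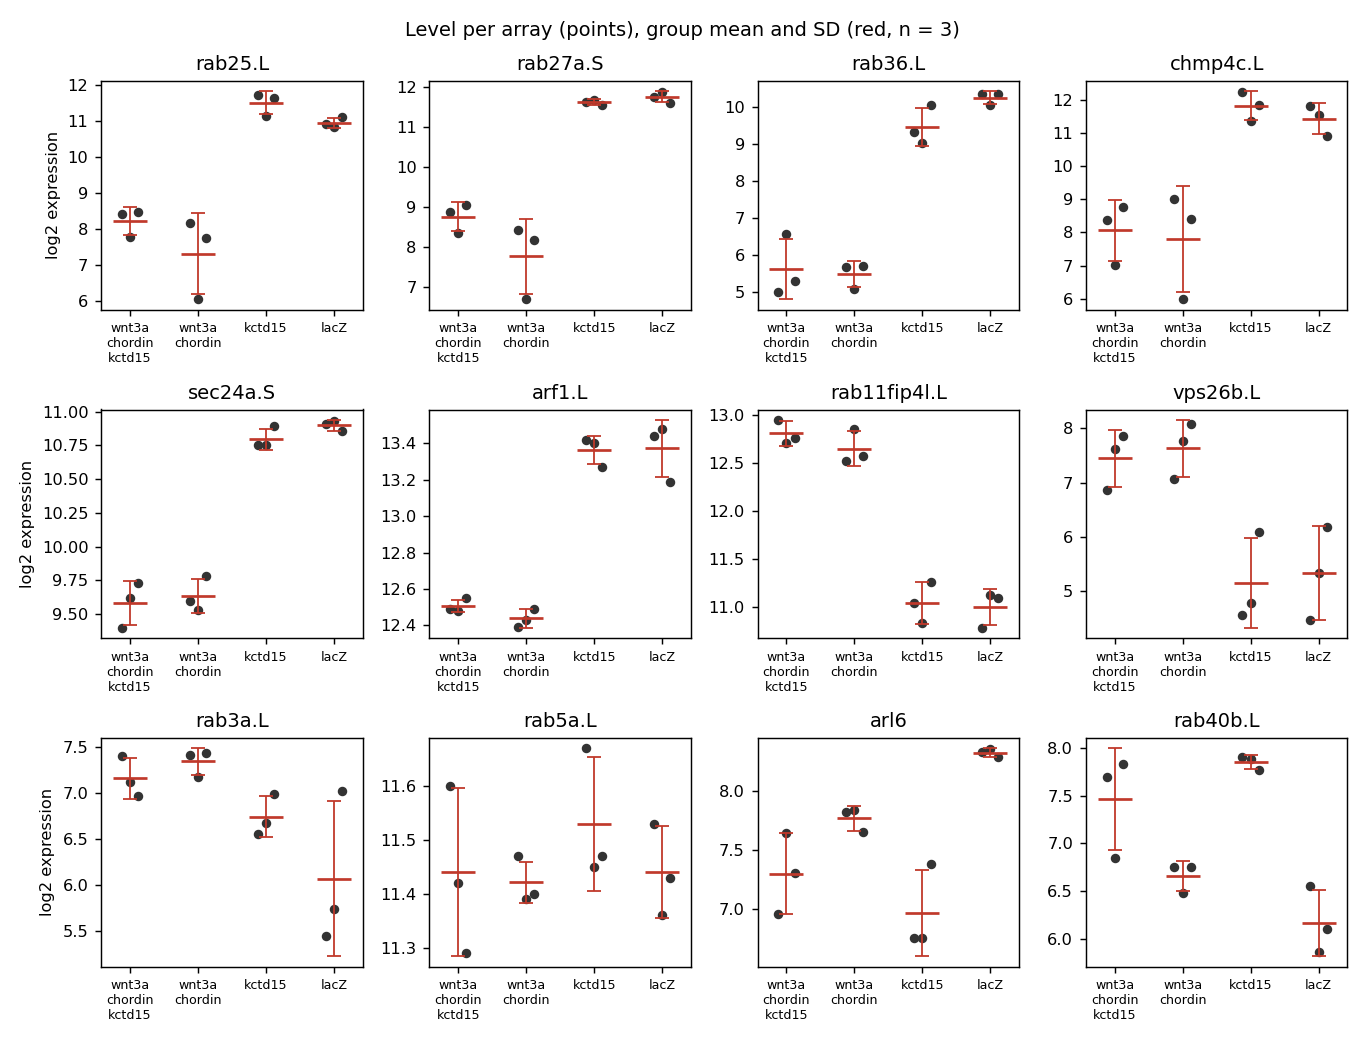
Panels give the log2 level of 12 genes on each array (points), with group mean and SD in red (n = 3), for wnt3a+chordin+kctd15, wnt3a+chordin, kctd15 and lacZ from left to right. rab25.L, rab27a.S, rab36.L, chmp4c.L, sec24a.S and arf1.L are lower and rab11fip4l.L and vps26b.L higher in both groups with the inducers, rab5a.L overlaps in all groups, and arl6 and rab40b.L differ between kctd15 and lacZ.

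The ESCRT genes, whose products bud vesicles into endosomes and cut membrane necks, fell or did not pass. Of 23 measured, 13 fell in wnt3a+chordin against lacZ and 14 in wnt3a+chordin+kctd15 against kctd15, 13 of them in both, none rose, and the medians were -0.51 and -0.66. chmp4c.L, a filament subunit that also acts when dividing cells separate, stood at 8.39, 7.03 and 8.78 in wnt3a+chordin+kctd15 and 9.01, 5.98 and 8.42 in wnt3a+chordin, against 12.24, 11.37 and 11.85 in kctd15 and 11.83, 11.56 and 10.92 in lacZ. It fell by 3.63 (SE 0.71, adjusted p = 0.00191) and 3.76 (adjusted p = 0.00154), and its probe set is of a design that can match several transcripts. chmp4b.L, another filament subunit, had 10.78, 10.78 and 10.73 in wnt3a+chordin+kctd15 and 11.02, 10.97 and 10.90 in wnt3a+chordin, against 11.41, 11.54 and 11.33 in kctd15 and 11.41, 11.50 and 11.17 in lacZ, and fell by 0.40 (SE 0.11, adjusted p = 0.0136) and 0.67 (adjusted p = 0.000633). For both filament genes the 6 arrays with the inducers lay below the 6 without. Another chmp4b.L probe set, nearly as bright, had 0.15 (adjusted p = 0.723) and 0.05 (adjusted p = 0.915), while a further one fell by 0.73 and 0.75.

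The ATPase that takes ESCRT filaments apart is encoded by vps4 genes. vps4b.S fell by 0.74 (SE 0.14, adjusted p = 0.00172) and 0.86 (adjusted p = 0.000675), and vps4b.L by 0.77 (SE 0.26, adjusted p = 0.0351) and 1.12 (adjusted p = 0.00539). The first of the vps4b.L calls was lost under 6 alternative settings. chmp1a.S, a regulator of that ATPase, fell by 1.14 (adjusted p = 0.000522) and 1.38 (adjusted p = 0.000152). vps37b.S and vps37a.S, of the early complex ESCRT-I that holds ubiquitinated cargo, fell by 0.55 and 0.97 in the first comparison. In the second they fell by 1.00 and 0.77. The first vps37a.S call (adjusted p = 0.0179) was lost under 3 alternative settings, and the second lay just under the threshold (adjusted p = 0.0498).

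Retromer genes, which return cargo from endosomes to the Golgi or the surface, included none that fell. Of 9 measured on that list, 3 rose in wnt3a+chordin against lacZ and 4 in wnt3a+chordin+kctd15 against kctd15 (33.3% and 44.4%, with 25.5% and 24.9% of all named genes), and the medians were 0.21 and 0.25. vps26b.L stood at 6.86, 7.62 and 7.86 in wnt3a+chordin+kctd15 and 7.06, 7.76 and 8.08 in wnt3a+chordin, against 4.57, 4.79 and 6.10 in kctd15 and 4.47, 5.34 and 6.19 in lacZ. It rose by 2.30 (SE 0.51, adjusted p = 0.00415) and 2.30 (adjusted p = 0.00413), with replicate 1 the lowest array of each group. vps26b.S rose by 0.99 (SE 0.20, adjusted p = 0.00238) and 0.84. vps26c.L, a subunit of the related retriever complex, rose by 0.75 (adjusted p = 0.0128, lost under 3 alternative settings) and 0.85. The scaffold subunit vps35.S had 0.10 (adjusted p = 0.633) and 0.25 (adjusted p = 0.199; 0.0252 with the replicate block) with overlapping groups, and vps35.L had 0.21 and, in the second comparison, 0.41 (adjusted p = 0.0454), a call lost under 12 alternative settings. The 3 measured tether genes, vps11.S, vps18.S and vps51.S, did not pass in either comparison. vps11.S had 0.44 (adjusted p = 0.0526) and 0.41 (adjusted p = 0.065), and passed in both with the replicate block (adjusted p = 0.00525 and 0.007). vps72.L, which rose by 0.86 in the first comparison (adjusted p = 0.00452), shares the vps name but encodes a chromatin protein that handles a histone variant.

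The 2 comparisons of inducers use separate arrays and gave like values across the genes. Over the 161 genes Pearson's r between their log2 fold changes was 0.923 and Spearman's rho 0.908, against 0.885 and 0.868 over all named genes, and 139 had the same sign. These figures are across genes, which are not independent replicates. Both comparisons also share the fit's estimate of each gene's spread, which enters the calls counted next. The replicate numbers, whose deviations moved together across groups, recur in both as well. Of the genes that fell, 59 did so in both comparisons, 88.1% of the 67 and 86.8% of the 68. Of those that rose, 11 did so in both, 52.4% of the 21 and 64.7% of the 17, and none was called in opposite directions. Another 33 genes were called in 1 comparison and 58 in neither. These counts, and that of genes with the same sign, were not taken over all named genes. Whether they are particular to the 161 genes was therefore not tested.

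**Figure D4:**
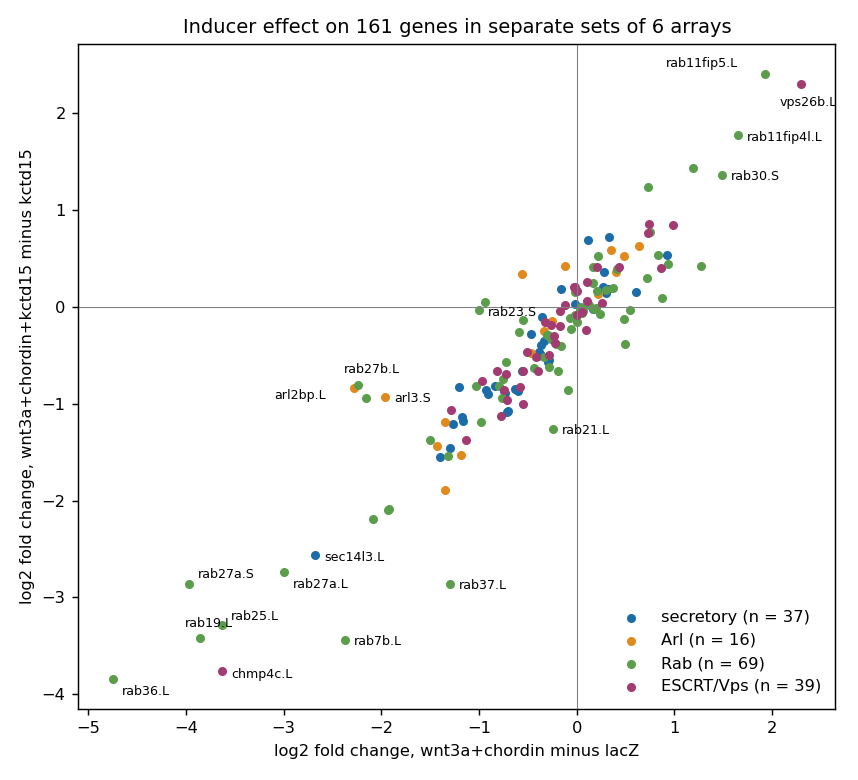
Each point is 1 of the 161 genes, with its log2 fold change in wnt3a+chordin against lacZ on the horizontal axis and in wnt3a+chordin+kctd15 against kctd15 on the vertical axis, coloured by subgroup. Points run along the diagonal from rab36.L at the lower left to vps26b.L and rab11fip5.L at the upper right, with rab7b.L, rab37.L and rab21.L lying below it and rab27b.L and arl2bp.L above it.

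The copies of a gene were set side by side. Of 39 pairs with both copies measured, 11 fell in both copies, 2 rose in both and 2 were called in opposite directions in wnt3a+chordin against lacZ, while 15 had 1 copy called and 9 none. In wnt3a+chordin+kctd15 against kctd15, 12 fell in both copies, 1 rose in both, none was opposite, 18 had 1 copy called and 8 none. These counts were not taken over all homeolog pairs on the array. Whether they are particular to these pairs was therefore not tested. The opposite pairs of the first comparison were named after their values were seen. rab8b.L fell by 1.32 (adjusted p = 0.0186) and rab8b.S rose by 0.83 (adjusted p = 0.0399), and rab5if.L fell by 0.33 (adjusted p = 0.0489) and rab5if.S rose by 0.38 (adjusted p = 0.0241). Probe sets can match both copies of a gene, which was not tested.

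Few of these genes differed between arrays labelled kctd15 and lacZ arrays. Of 161 genes 9 were higher (5.59%, where 3.0% of all named genes were) and 6 lower (3.73%, where 4.45% were), with a median of 0.07 against 0.05 over all named genes. Here too, the shares of all named genes were taken in the main fit alone, not under the settings that follow. With the replicate block 16 were higher and 9 lower, and without the 2 muscle-rich arrays 6 were higher and 7 lower (3 and 6 without all 4). The count of higher genes was 3 without lacZ replicate 1, 2 without kctd15 replicate 1, 4 without lacZ replicate 2, and 5 without kctd15 replicate 2 or without lacZ replicate 3. The count of lower genes was 3 without lacZ replicate 1 or kctd15 replicate 2. The comparison shares its lacZ arrays with wnt3a+chordin against lacZ and its kctd15 arrays with wnt3a+chordin+kctd15 against kctd15.

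arl6, whose human counterpart is a Bardet-Biedl syndrome gene that brings a cargo coat to cilia, had the smallest p. It stood at 6.75, 6.75 and 7.38 in kctd15, against 8.33, 8.36 and 8.29 in lacZ, and fell by 1.37 (SE 0.20, adjusted p = 0.00275). With the inducers it stood at 6.95, 7.64 and 7.30 in wnt3a+chordin+kctd15, where the wnt3a+chordin arrays had 7.82, 7.84 and 7.65, a difference of -0.47 (adjusted p = 0.693). arl2bp.L, given above by array, fell by 1.80 in kctd15 against lacZ (SE 0.30, adjusted p = 0.0055). The 14 multiciliated markers had a median of -0.63 in this comparison, none was called, and their mean level was 9.70 to 10.06 in kctd15 and 10.35 to 10.49 in lacZ. Epidermis markers were called lower for 2 of 12 genes, by up to 4.06, and their mean level was 11.03 to 11.57 in kctd15 and 12.31 to 12.49 in lacZ. Of the other marker lists, 3 of 16 neural crest, 2 of 11 notochord and 1 of 5 small secretory cell markers were lower, and 1 of 7 cement gland and 1 of 11 neural plate markers higher. The part of these cell types in these falls was not tested. Among the others that fell were rab27b.S by 1.16 (adjusted p = 0.0213), rab11b.1.S by 0.66 (adjusted p = 0.019), sec22a.S by 0.63 (adjusted p = 0.00427) and rab23.S by 0.60 (adjusted p = 0.0145).

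rab40b.L, which encodes a Rab with a SOCS box that recruits a ubiquitin ligase, had the largest rise. It stood at 7.90, 7.88 and 7.77 in kctd15, against 6.55, 5.86 and 6.10 in lacZ, and rose by 1.68 (SE 0.25, adjusted p = 0.00288). With the inducers it stood at 7.70, 6.85 and 7.83 in wnt3a+chordin+kctd15, where the wnt3a+chordin arrays had 6.75, 6.48 and 6.75, apart in every array but with 0.80 short of the threshold (adjusted p = 0.341). rab21.L, a Rab of early endosomes, stood at 8.76, 8.67 and 8.82 in kctd15, against 7.16, 7.78 and 7.62 in lacZ, and rose by 1.23 (adjusted p = 0.014). rab24.L, linked to autophagy, rose by 0.95 (adjusted p = 0.00979), and rab32.S, which serves melanosome formation in pigment cells, by 0.65 (adjusted p = 0.0247). Of the ESCRT genes 3 rose: vps37b.S by 0.70 (adjusted p = 0.0227), chmp2b.L by 0.68 (adjusted p = 0.0456) and chmp5.S by 0.36 (adjusted p = 0.0478). arl1.S rose by 0.67 (adjusted p = 0.0412) and arl6ip1.S by 0.60 (adjusted p = 0.0161). Of these 15 calls, those of arl2bp.L, arl6, sec22a.S and rab40b.L held under all alternative settings tried for single genes. The other 11 missed the threshold under 1 or more.

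**Figure D5:**
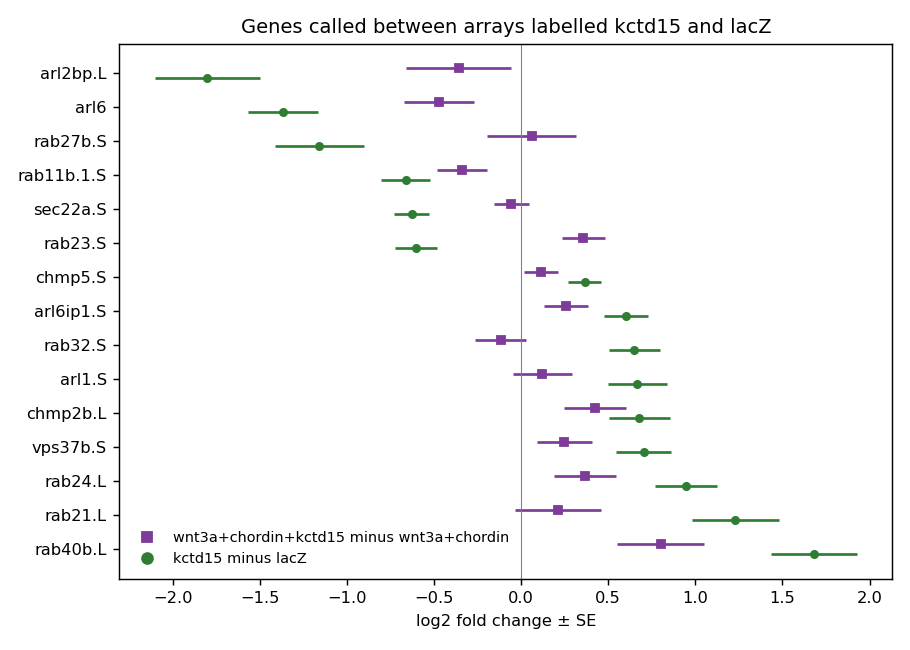
Points give the log2 fold change with SE (3 arrays per group) of the 15 genes called between kctd15 and lacZ, as squares for wnt3a+chordin+kctd15 minus wnt3a+chordin and circles for kctd15 minus lacZ. The genes were picked by the calls behind the circles; each square lies nearer to 0 than its circle, and rab23.S, rab27b.S and rab32.S have the opposite sign in the squares.

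With the inducers present, adding kctd15 changed none of these genes past the threshold. In wnt3a+chordin+kctd15 against wnt3a+chordin, 0 of 161 were called by limma (0.203% of all named genes were higher and 0.549% lower), and at an unadjusted p under 0.05 there were 6 higher and 7 lower. Over all 11303 named genes, 359 were higher and 425 lower at that unadjusted p. The median of the 161 genes was 0.02, and for 139 of the 161 genes the 95% confidence interval of the difference lay within 1 log2 unit either side of 0. The count of such intervals was not taken over all named genes. The smallest adjusted p, 0.173, was that of rab6b.S, a Golgi Rab known from neurons in mammals. It stood at 4.94, 4.57 and 4.79 in wnt3a+chordin+kctd15, where the wnt3a+chordin arrays had 5.85, 5.27 and 5.55, a difference of -0.79 with no overlap, and it passed with the replicate block (adjusted p = 0.0149). The effects of kctd15 with and without inducers, which use separate arrays, had r = 0.295 and rho = 0.34 across the 161 genes, with the same sign in 103. The same figures were not taken over all named genes. Among cell type markers, 4 of 16 neural crest, 2 of 12 epidermis and 1 of 11 notochord markers were lower in wnt3a+chordin+kctd15 than in wnt3a+chordin. No listed marker was called higher there. Neural crest markers had a mean level of 8.32 to 9.58 in wnt3a+chordin+kctd15 and of 10.28 to 11.03 in wnt3a+chordin. The part of cell makeup in this comparison was not tested.

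The interaction of kctd15 with the inducers was called for 1 of the 161 genes (0.805% of all named genes were higher and 0.531% lower). That gene was rab23.S, whose product acts at cilia and in mice restrains Hedgehog signalling. It stood at 8.47, 8.28 and 8.63 in wnt3a+chordin+kctd15, 8.00, 8.12 and 8.19 in wnt3a+chordin, 8.52, 8.43 and 8.55 in kctd15, and 9.28, 9.02 and 9.00 in lacZ. The lacZ arrays were the highest and the wnt3a+chordin arrays the lowest, and both groups labelled kctd15 lay between. The difference made by kctd15 was 0.36 with the inducers and -0.60 without, and the interaction was 0.96 (adjusted p = 0.0315). It missed the threshold when any of 9 of the 12 arrays was left out (adjusted p up to 0.0824) and with arrays centred on their medians (adjusted p = 0.0503), and no gene of the 161 was called without the 4 muscle-rich arrays.

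Genes of the same pathways, outside the named families but for sec62, were read from lists drawn up by function. Over all named genes 19.0% fell and 25.5% rose in wnt3a+chordin against lacZ, the first comparison here. In the second, wnt3a+chordin+kctd15 against kctd15, 20.5% fell and 24.9% rose. COPI coat and Sar1 genes, which act beside Arf1 and COPII, fell in 10 of 12 in each comparison (83.3%). Of 35 genes of ER entry, cargo receptors and ER exit, 13 fell (37.1%) and 1 rose (2.86%) in the first comparison. In the second 20 fell (57.1%) and 2 rose (5.71%). This list also holds sec62.L and sec62.S, which belong to the 161 genes. The gene that rose in the first comparison was sec62.S, and sec62.L was among the 2 that rose in the second. Of 38 clathrin, adaptor and sorting nexin genes, 15 fell (39.5%) and 7 rose (18.4%) in the first comparison. In the second 14 fell (36.8%) and 8 rose (21.1%). SNAREs gave 13 of 39 lower (33.3%) and 7 higher (17.9%), then 18 (46.2%) and 6 (15.4%). Partners of ESCRT gave 7 of 16 lower in each comparison (43.8%), with 2 (12.5%) and 1 (6.25%) higher. Of 10 regulators of the Rab cycle 1 fell and 1 rose in the first comparison, and 3 and 1 in the second. Of 4 exocyst genes, which tether vesicles at the plasma membrane, 1 fell and 1 rose in the first and none was called in the second.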

How the data were processed

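Total RNA of animal caps was biotin-labelled by 3' in vitro transcription, per the labels' protocols, and 12 arrays in 4 groups of 3 were grouped by the sample titles. The authors deposited log2 values, 1 per probe set, which ran from 2.38 to 15.58. Partek is named in the submitters' processing notes, and the sources used here state neither its version nor how arrays were background-corrected, summarised or normalized. Array number limits the precision, and replicates correlated at r of 0.971 to 0.986 across probe sets.

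The tests leave out 96 control and 64 reporter probe sets of 32635. Of the 32475 tested, 15495 had 1 gene symbol in the platform annotation, 279 several and 16701 none, and 15384 of those with 1 had a gene identifier in the RefSeq table given, as had 160 of the 161 genes. Another 54 probe sets of these genes were read as an alternative. The fit used all arrays, with 1 mean per group, and ran in R 4.3.3 with limma 3.58.1 (functions lmFit, contrasts.fit and eBayes). P values were two-sided, with Benjamini-Hochberg adjustment over the tested probe sets in each contrast and a threshold of 0.05. The script was tested on simulated data.

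Genes and lists were chosen with earlier results of these data known. Named genes are, per comparison and subgroup, up to 6 in each direction with the largest changes among called genes whose arrays do not overlap (for the interaction up to 4), or the gene with the smallest p where none was called, their homeologs, and a set of standard pathway genes (among them arf1, rab5a, rab7a, rab11a, arl6, vps4b and vps35). Genes of complete lists and rab5d, rab35l, rab8b and rab5if fall outside the rule.

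Replicate numbers come from the titles, which do not explain them. Deviations from group means correlated at 0.18 to 0.71 over 18 pairs with the same number and at -0.51 to 0.10 over the 36 other pairs. Each array's best match in another group carried its own number (36 of 36). Values with the number as a block are therefore given where they change the call of a printed value or move a count over the 161 genes by over 1.5 times. Other alternatives were quantile normalization, median centring, array weights, a trended variance prior, dim probe sets left out, the dimmest probe set per gene, only the groups compared, each array left out and, chosen after seeing the data, the 2 arrays with the highest muscle levels left out, or, for counts alone, 4. No sequence is printed and no genome position is given, since the files name no genome build.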

Additional observations from a re-analysis of the deposited data

Results flagged for a closer look

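rab23.S drew attention because the effect of kctd15 differed between caps with and without wnt3a and chordin. The interaction was 0.96 on the log2 scale (limma, Benjamini-Hochberg adjusted p = 0.0315). The effect of kctd15 was 0.36 with the inducers, where all 3 arrays of wnt3a+chordin+kctd15 lay above all 3 of wnt3a+chordin, and -0.60 without them, where all 3 arrays of kctd15 lay below all 3 of lacZ. The adjusted p ran from 0.0189 with the replicate block to 0.0824 without wnt3a+chordin replicate 1. Without the 2 arrays with the highest muscle levels it was 0.0425, for an interaction of 1.10, and without all 4 muscle-rich arrays none of the 161 genes was called for the interaction. Groups of 3 arrays were not tested for single outlying arrays. The cause was not tested.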

How the results depend on the processing

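Of 228 recomputed counts of called genes 194 stayed within 1.5 times, and of 352 recomputed subgroup medians 314 moved by less than the spread between replicate differences. The counts over all named genes were not recomputed. The replicate block gave 32 higher genes in wnt3a+chordin against lacZ, 27 in wnt3a+chordin+kctd15 against kctd15 and 16 in kctd15 against lacZ, 1 lower gene (rab6b.S) in wnt3a+chordin+kctd15 against wnt3a+chordin, and 3 lower in the interaction (rab32.S, rab6b.S and rab7b.L); the block moved no other count by over 1.5 times. Without dim probe sets 11 genes were higher in wnt3a+chordin+kctd15 against kctd15, as with only the groups compared, a setting that has no interaction. Median centring left 0 higher in the interaction, and leaving out both muscle-rich arrays 2. Leaving out all 4 arrays with high muscle levels, and so keeping 1 wnt3a+chordin array, gave 8 higher and 40 lower in wnt3a+chordin against lacZ, 11 higher in wnt3a+chordin+kctd15 against kctd15, 3 higher in kctd15 against lacZ and 0 higher in the interaction.

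Leaving out 1 array at a time gave 2 to 9 higher and 3 to 7 lower genes in kctd15 against lacZ, 0 to 1 higher in wnt3a+chordin+kctd15 against wnt3a+chordin, and 0 to 3 higher and 0 to 1 lower in the interaction. In wnt3a+chordin against lacZ it gave 18 to 23 higher and 54 to 67 lower, and in wnt3a+chordin+kctd15 against kctd15 12 to 17 and 62 to 67. Medians ran from -0.57 to -0.40 (secretory, wnt3a+chordin against lacZ), -0.24 to -0.16 (Rab, wnt3a+chordin+kctd15 against kctd15) and -0.152 to 0.0659 (Arl, kctd15 against lacZ). In wnt3a+chordin+kctd15 against wnt3a+chordin they ran from -0.0653 to 0.0155 (secretory), -0.0362 to 0.136 (Arl), -0.0267 to 0.0378 (Rab) and -0.0071 to 0.100 (ESCRT and Vps).

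Other settings moved these medians. In wnt3a+chordin against lacZ, the secretory median was -0.57 without the muscle-rich arrays and the Rab median -0.27 without dim probe sets. In wnt3a+chordin+kctd15 against kctd15, the secretory median was -0.47 at the dimmest probe set per gene. The Rab median there was -0.17 with quantile normalization, -0.29 without dim probe sets, -0.19 with array weights, -0.17 without the muscle-rich arrays and -0.14 at the dimmest probe sets. The ESCRT and Vps median was -0.31 without dim probe sets. In wnt3a+chordin+kctd15 against wnt3a+chordin, the Arl median was 0.0561 with quantile normalization, 0.0525 with median centring, 0.0427 with array weights, 0.0559 without the muscle-rich arrays and 0.0534 at the dimmest probe sets, the Rab median -0.0216 with array weights and 0.026 at the dimmest probe sets, and the ESCRT and Vps median 0.10 without the muscle-rich arrays.

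At the dimmest probe set per gene 3 named values changed sign and lost the call: arl14ep.L to -0.20 in wnt3a+chordin against lacZ, and sec24a.S to 0.0032 and sec11c.S to 1.99 in wnt3a+chordin+kctd15 against kctd15. The cause was not tested. Of the named calls, 31 of 38 held under all settings other than the one without 4 arrays, which was read for counts alone, in wnt3a+chordin against lacZ, 30 of 38 in wnt3a+chordin+kctd15 against kctd15, 4 of 15 in kctd15 against lacZ and 0 of 1 in the interaction. The number of arrays and, for the 37 dim genes, the array's background limit what can be seen.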

Other observations

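Some genes that act beside the Arf, Arl, Rab, ESCRT, Vps and Sec genes changed by more than 1 log2 unit, and were picked after their values were seen. The mu subunit of the epithelial adaptor AP-1B, ap1m2, which sorts cargo to the basolateral surface, fell in both homeologs in wnt3a+chordin against lacZ, with -3.28 for ap1m2.L and -3.61 for ap1m2.S, which averaged 7.14 ± 1.13 in wnt3a+chordin and 10.75 ± 0.05 in lacZ (SD, n = 3 each). The SNARE stx19.L fell by 3.38, and the cargo receptor tmed4.S by 1.71. Of the 39 SNARE genes, 13 fell and 7 rose (17.9%, below the 25.5% of all named genes), and among the 7 were snap25.L, with 1.98, and vamp2.L, with 2.17. Their homeologs had 0.29 (snap25.S, adjusted p = 0.116) and 0.73 (vamp2.S, adjusted p = 0.0606), and vamp2.L averaged 7.89 ± 0.73 in wnt3a+chordin and 5.72 ± 0.27 in lacZ. Of 6 transcription factor genes listed for secretory cells and the secretory pathway, 3 fell and none rose in that comparison. creb3l2.L, which in fish and mice turns on COPII genes, averaged 8.86 ± 0.63 in wnt3a+chordin and 11.20 ± 0.11 in lacZ and fell by 2.33, and foxa1.L, a regulator of the small secretory cells of frog epidermis, averaged 5.93 ± 0.63 and 9.51 ± 0.36 and fell by 3.58. In kctd15 against lacZ 2 of these 6 fell.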
